A study of Danio rerio with 37 samples.

Results

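The genes described here are the zebrafish genes of the cell division cycle and the centromere: cyclins of the A, B, D and E types, the kinases cdk1 and cdk2, CDC genes, the licensing and helicase genes of the MCM, ORC and GINS families, CENP genes, and bub1, bub1bb, aurka, aurkb, plk1, birc5a, birc5b, kif11 and kif20a. They were picked by a rule on gene symbols that uses no measured value, and number 85 of the 32520 genes counted. The choice was made with earlier results of these data known, so it was not blind to them. The symbol column named 83 of them, and it was blank for bub1 and bub1bb, which were found by Ensembl identifier through a gene name table. Because the choice went by symbol, 18 of the 85, such as the small GTPase gene cdc42 and its partners, encode proteins known for other work and are described apart. RNA came from whole zebrafish embryos at 6 hours after fertilization and was sequenced in 37 libraries. The sample titles give an RNA-targeting CRISPR effector (RfxCas13d, DjCas13d or Cas7-11), a GFP dose of 10 or 50 pg, and a knockdown or control arm. The series' design text speaks of clearance of maternal mRNAs after knockdown of the miR-430 primary transcript, whereas the titles name GFP. At 10 pg the RfxCas13d groups held 2 knockdown and 3 control libraries, and at 50 pg 3 and 3. DjCas13d had 3 knockdown and 3 control libraries at each dose, and Cas7-11 had 4 and 4 at 10 pg and 3 and 3 at 50 pg. The labels do not say what the control embryos received, nor how many embryos went into a library, so replicates may be technical and p-values then measure only the spread between these libraries.

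Cell division is driven by cyclins, whose levels oscillate and which switch on the CDK enzymes, and it is ended by the anaphase-promoting complex, a ubiquitin ligase that marks cyclins for destruction. DNA replication begins where the origin recognition complex (ORC) loads the ring-shaped MCM helicase, which the GINS proteins and Cdc45 then complete, and chromosomes are pulled apart through kinetochores built on centromeric CENP proteins. In fish and frog embryos the early cleavages run on mRNAs stored in the egg, which are later replaced by mRNAs from the embryo's own genes. In the frog Xenopus, some of these proteins, among them MCM3, MCM6 and cyclin A, exist in egg and embryonic forms encoded by separate genes.

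Assigned reads per library ranged between 3944559 and 8034012 with RfxCas13d and DjCas13d, and between 17432069 and 23991611 with Cas7-11. The targeted GFP transcript was lower in every knockdown library than in every control library of its comparison in all 6, with 121 to 446 TPM in RfxCas13d knockdown libraries at 50 pg, against 4226 to 21930 TPM in their controls. At 10 pg RfxCas13d had 4.26 to 7.92 TPM against 676 to 4464. DjCas13d had 4.71 to 31.2 TPM against 3180 to 3665 at 10 pg, and 33.2 to 119 against 7185 to 9962 at 50 pg. Cas7-11 had 35.0 to 70.4 TPM against 224 to 305 at 10 pg, and 223 to 313 against 701.5 to 1329 at 50 pg. The Cas7-11 arms thus lay closer together in GFP, as a ratio, than those of the other effectors. Genes of the gastrula such as tbxta (median 509.5 TPM over the 37 libraries) were present, and the median of each of 6 genes of later organs was at most 0.33 TPM, as labelled for this stage. Single libraries varied widely, with tbxta at 139 to 598 TPM, mixl1 at 6.7 to 137.5 TPM and the later gene ins at up to 8.01 TPM. Whether the arms differed in stage was not tested. In 5 libraries the nuclear RNA malat1 exceeded 5000 CPM: RfxCas13d control replicates 1 and 3 at 10 pg and 1 at 50 pg, and DjCas13d knockdown replicates 1 and 2 at 10 pg. These malat1-rich libraries touch the results at 10 pg in particular. Values between arms are given as CPM (read counts on a common library total, scaled by TMM, a factor per library that sets most genes equal), and levels between genes as TPM, which accounts for transcript length. In whole embryos, fewer cells of a type and less RNA per cell cannot be told apart.

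Of the 85 genes, 79 had enough reads to be tested, and 68 had a mean of at least 10 TPM over the 37 libraries. The 6 untested genes were ccnd2b, ccndx, cdc14aa, cdc42ep3, cdc42l2 and cdc42se2, with between 1 and 242 reads in all libraries together. In control embryos the highest level was that of ccnb1, cyclin B1, which drives entry into mitosis, with 944 TPM as the mean of the 6 control groups. Its control group means lay within 1.15-fold of each other. Next came ccnd1 (cyclin D1, which acts early in the cycle) with 640.3 TPM, mcm7 (a helicase subunit) with 454, plk1 (a mitotic kinase) with 413 and cdc20 (which activates the anaphase-promoting complex) with 305. At the other end, ccnd2a was at 2.39 TPM and cdc25d, a member of the CDC25 phosphatase family, at 0.74. Control levels were not alike in all groups: ccnd1 spanned 2.47-fold, kif11 2.66-fold and mcm5 3.42-fold between the lowest and highest control group mean. Summed over all members, a library held between 5942 and 10117 TPM.

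The RfxCas13d knockdown at 50 pg had the most members called. Of 79 tested members, 20 rose and 29 fell at an adjusted p under 0.05 (edgeR's quasi-likelihood test, Benjamini-Hochberg over 16321 genes), or 62.0%. The background is that 58.8% of all genes tested were called in this comparison, 30.0% higher and 28.8% lower, so the share of members is near that of all genes. The median log2 fold change of the members was -0.01, beside 0.05 over all genes. The values of the members ranged from -2.37 ± 0.29 for cenps to 3.26 ± 0.46 for birc5b (log2 fold change ± SE). Knockdown and control libraries did not overlap for 45 members, 20 higher and 25 lower, against a background of 52.8% of all genes, 28.0% higher and 24.8% lower. All 20 genes that rose also passed under 5 other scalings or tools, and 11 of the 29 that fell did: cdc42l, bub1bb, cenps, ccnd1, mcm3, ccne2, cdc23, cenpe, mcm6, cdc26 and cenpx. Another 9 that fell turned sign under scaling by library size alone or in TPM: aurkb, cdc7, cdc20, cdc40, cdc123, cdk1, cenpk, kif11 and plk1. With library size alone 43 members were higher and 12 lower, and in log2(TPM + 1) 46 and 11. Over all genes the numbers were 7380 and 2529, and 8059 and 2062. Under these scalings the median of all genes moved to 0.64 and 0.60 (log2), beside 0.05 with TMM, so the split between genes that rose and genes that fell depends on the scaling. Such a shift also makes it easier for the genes that rose to pass again. With only the libraries compared, 14 of the 20 and 17 of the 29 passed. In all 6 fits that left out a library of this comparison, 16 and 19 passed. Among the genes that rose, gins2 and cenpo passed in the fewest of these, 2 of 6. In this comparison malat1 was at 416 to 750 CPM in knockdown libraries, against 1054 to 5830 CPM in controls, and its part in the result was not tested. Without the malat1-rich control replicate 1, and the other malat1-rich libraries, 46 members were called. Over all genes that fit called 4694 higher and 4476 lower.

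**Figure D1:**
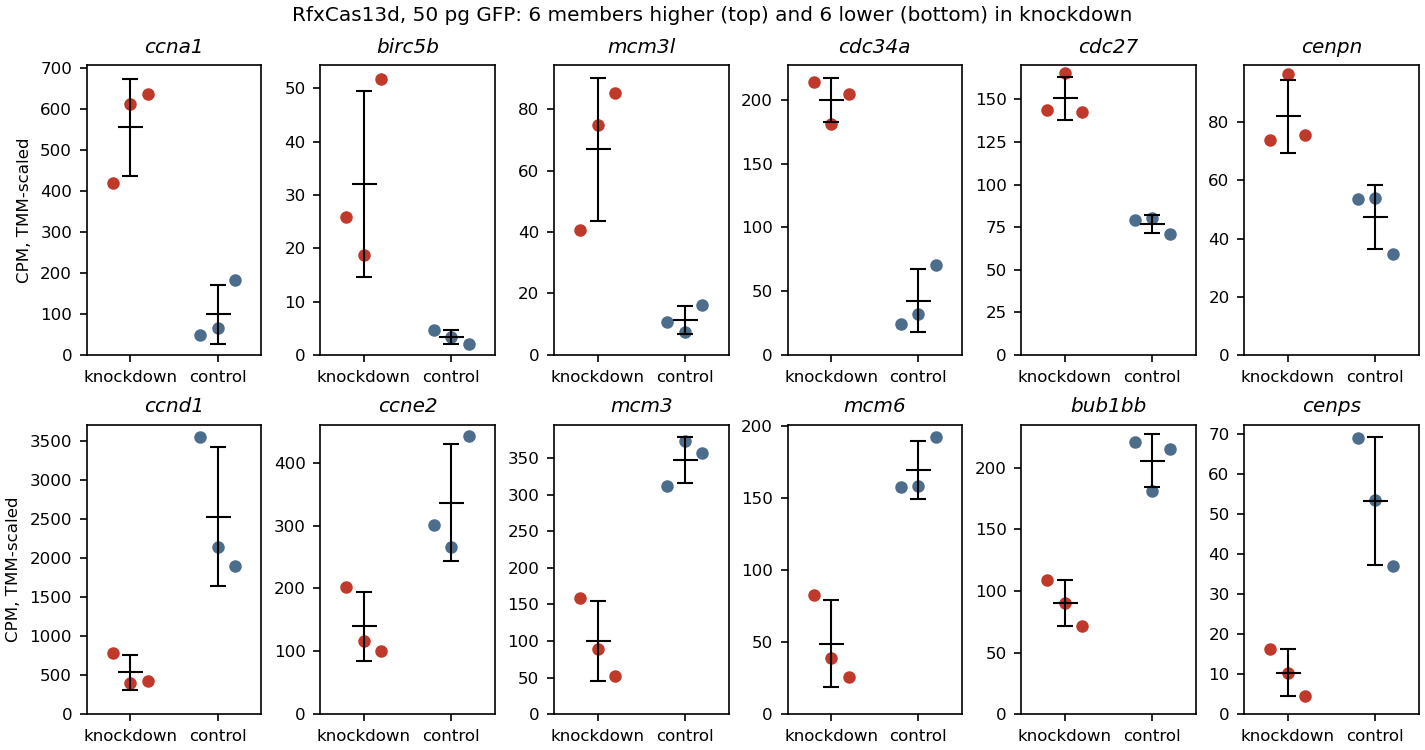
TMM-scaled CPM of 12 members with RfxCas13d at 50 pg GFP, knockdown libraries left and control libraries right in each panel; points are libraries, and the bar gives the mean ± SD (n = 3 each). The upper 6 genes lie higher and the lower 6 lower in every knockdown library than in every control library.

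Cyclins and their kinases split between members. Of 12 tested, 3 rose and 6 fell, and each of the A, B and D types had members on both sides. The background for each role in this comparison is 30.0% of all genes higher and 28.8% lower. Ccnd1 had 788, 397 and 419.9 CPM in knockdown libraries, against 3549, 2139 and 1899.9 CPM in controls. Every knockdown library lay below every control, with a log2 fold change of -2.24 ± 0.28 (adjusted p = 8.65e-08). Its relative ccnd2a, another D-type cyclin, had 5.55, 6.54 and 7.88 CPM in knockdown libraries, against 2.11, 0.448 and 1.47 CPM in controls. All knockdown libraries were above the controls here, by 2.32 ± 0.49 (adjusted p = 0.000159). The level of ccnd2a stayed far under that of ccnd1 in these libraries: its share of the TPM of both was 1.90%, 6.15% and 9.76% in knockdown libraries, against 0.255%, 0.0766% and 0.493% in controls. Another D-type gene, ccnd3, was at 0.89 ± 0.44 (adjusted p = 0.0786) and did not pass.

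The A-type cyclins, which act in S phase and mitosis, also parted. Ccna1 had 419, 611 and 636 CPM in knockdown libraries, against 48.6, 65.4 and 182 CPM in controls. The lowest knockdown library exceeded the highest control, and the log2 fold change was 2.50 ± 0.52 (adjusted p = 0.000173). For ccna2 the libraries held 491, 375 and 306 CPM in knockdown libraries, against 599.9, 829 and 937 CPM in controls. Ccna2 was lower in every knockdown library, with a log2 fold change of -1.01 ± 0.27 (adjusted p = 0.00182). It kept its sign under every other scaling but not always its call.

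Among B-type cyclins, ccnb2 had 238, 338 and 329 CPM in knockdown libraries, against 183, 178 and 208 CPM in controls. It rose without overlap, by 0.67 ± 0.15 (adjusted p = 0.00047). Ccnb1 and ccnb3 both fell without overlap, with log2 fold changes of -0.58 ± 0.17 and -1.02 ± 0.23. Ccne2, a cyclin that starts DNA replication, had 202, 116 and 101 CPM in knockdown libraries, against 301, 266 and 443 CPM in controls. Its knockdown libraries were all lower, with a log2 fold change of -1.27 ± 0.19 (adjusted p = 1.17e-06). The other E-type gene, ccne1, was at -0.21 ± 0.18 (adjusted p = 0.32) and did not pass. Cdk1, the mitotic CDK, was lower at -0.58 ± 0.20 (adjusted p = 0.0134), but turned sign with library size alone and in TPM, and cdk2 was at 0.05 ± 0.15 (adjusted p = 0.809).

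In the group of phosphatase and ubiquitin genes, 3 of 11 tested members rose and 3 fell, and subunits of the anaphase-promoting complex were found on both sides. Cdc27 had 144, 165 and 142 CPM in knockdown libraries, against 79.3, 80.1 and 70.8 CPM in controls, and cdc16 had 49.8, 58.5 and 64.0 CPM in knockdown libraries, against 35.4, 35.1 and 28.3 CPM in controls. Both rose without overlap, by 0.97 ± 0.14 (adjusted p = 9.62e-07) and 0.80 ± 0.13 (adjusted p = 4.16e-06). The subunits cdc23 and cdc26 went the opposite way. Cdc23 had 37.9, 16.0 and 12.5 CPM in knockdown libraries, against 73.9, 65.5 and 57.6 CPM in controls, and cdc26 had 26.7, 14.2 and 17.1 CPM in knockdown libraries, against 84.8, 68.5 and 34.2 CPM in controls. These fell, with log2 fold changes of -1.57 ± 0.24 (adjusted p = 2.03e-06) and -1.69 ± 0.29 (adjusted p = 1.18e-05), and knockdown replicate 1 lay nearest the controls in both genes. Of 13 further genes of the complex and its regulators, 0 rose and 5 fell, with anapc16 at -1.20 ± 0.21 and the ubiquitin-conjugating enzyme ube2c at -1.03 ± 0.21, and 1 of the 5, anapc16, passed in all 5 other scalings and tools. Cdc34a, a ubiquitin-conjugating enzyme that works with SCF ligases, had 214, 181 and 205 CPM in knockdown libraries, against 24.5, 32.4 and 70.7 CPM in controls. The lowest knockdown library was above the highest control, and the log2 fold change was 2.24 ± 0.50 (adjusted p = 0.000372). Its relative cdc34b was at 0.16 ± 0.12 (adjusted p = 0.247). Cdc20 was lower at -0.41 ± 0.15 but turned sign with library size alone. The phosphatase genes cdc25b, cdc14ab and cdc14b were within 0.05 of 0 on the log2 scale and were not called.

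In the replication group, 5 of 22 tested members rose and 6 fell. Mcm3 and mcm6, subunits of the helicase ring, were the lowest of them. Mcm3 had 159, 89.8 and 52.0 CPM in knockdown libraries, against 312, 374 and 357 CPM in controls, and mcm6 had 82.7, 38.7 and 25.5 CPM in knockdown libraries, against 158, 158 and 192 CPM in controls. All knockdown libraries lay under all controls, with log2 fold changes of -1.79 ± 0.26 (adjusted p = 1.01e-06) and -1.79 ± 0.29 (adjusted p = 6.61e-06). The genes mcm5 (-1.05 ± 0.20) and mcm2 (-0.81 ± 0.23) fell too, whereas mcm7 (-0.34 ± 0.23) and mcm4 (0.17 ± 0.23) did not pass, so the 6 subunits of the ring were not called alike. Mcm3l, a further MCM3 gene, had 40.8, 74.9 and 85.1 CPM in knockdown libraries, against 10.6, 7.31 and 16.4 CPM in controls. It rose in every knockdown library, by 2.56 ± 0.35 (adjusted p = 2.90e-07). Mcm6l, a further MCM6 gene, was at -0.04 ± 0.30 (adjusted p = 0.912). Of the origin recognition genes, orc1 had 44.7, 84.8 and 73.9 CPM in knockdown libraries, against 22.7, 26.9 and 41.2 CPM in controls. It rose by 1.17 ± 0.23 (adjusted p = 8.66e-05) without overlap, as did orc6 by 0.55 ± 0.16, and orc3, orc4 and orc5 were not called. Orc2, which the symbol column did not name and which is not a member, was at 1.11 ± 0.37 (adjusted p = 0.0106) with overlapping arms. It belongs to 11 tested genes with capital-letter or table-only symbols, of which 3 rose and 2 fell. Among the GINS genes, gins1 and gins2 rose (0.74 ± 0.23 and 0.76 ± 0.33), gins4 fell (-1.003 ± 0.27) and gins3 was not called.

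Of 12 kinetochore and centromere genes, 2 rose and 5 fell. Bub1bb, which encodes the checkpoint kinase BubR1 that holds cells in mitosis until chromosomes are attached, had 109, 90.1 and 71.9 CPM in knockdown libraries, against 221, 181 and 215 CPM in controls. The highest knockdown library was well below the lowest control, with a log2 fold change of -1.19 ± 0.14 (adjusted p = 1.66e-08). Its relative bub1 was at -0.59 ± 0.29 (adjusted p = 0.0867) and did not pass. Cenps and cenpx, whose products pair in a histone-like complex, had 16.3, 10.4 and 4.53 CPM in knockdown libraries, against 69.1, 53.6 and 37.2 CPM in controls for cenps, and 17.4, 6.54 and 8.96 CPM in knockdown libraries, against 43.5, 42.4 and 21.7 CPM in controls for cenpx. Both fell without overlap, at -2.37 ± 0.29 (adjusted p = 4.74e-08) and -1.71 ± 0.31 (adjusted p = 2.08e-05). Cenpe, a kinetochore motor, fell (-1.35 ± 0.22). Cenpn, which reads the centromeric histone CENP-A, had 73.9, 96.5 and 75.6 CPM in knockdown libraries, against 53.5, 54.0 and 34.6 CPM in controls. It rose without overlap, by 0.79 ± 0.14 (adjusted p = 1.18e-05), and cenpo, at 1.19 to 2.92 CPM in controls, by 1.07 ± 0.43.

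Of the 7 mitotic kinase, passenger and kinesin genes, 1 rose and 5 fell, against a background of 30.0% of all genes higher and 28.8% lower. The gene that rose was birc5b, which encodes a form of survivin, a protein of the chromosomal passenger complex with Aurora B. It had 25.8, 18.7 and 51.8 CPM in knockdown libraries, against 4.71, 3.28 and 2.02 CPM in controls. Every knockdown library was above every control, though replicates spread widely, and the log2 fold change was 3.26 ± 0.46 (adjusted p = 5.77e-07), the highest of all 79 members. Its relative birc5a had 73.8, 35.4 and 45.0 CPM in knockdown libraries, against 77.8, 82.8 and 77.5 CPM in controls. Birc5a fell, at -0.63 ± 0.17 (adjusted p = 0.00273), with knockdown replicate 1 just under the controls. Kif20a, a kinesin of the late spindle, fell (-0.98 ± 0.20) and kept its sign in all 5 other scalings and tools. Aurkb (-0.60 ± 0.14), kif11 (-0.57 ± 0.21) and plk1 (-0.35 ± 0.13) were called lower but turned sign in TPM, and kif11 and plk1 also with library size alone. Aurka was at 0.17 ± 0.16 (adjusted p = 0.392).

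Among the members known for other work, 6 of 15 tested rose and 4 fell. Cdc42l, a relative of the small GTPase gene cdc42, had 233, 157 and 166 CPM in knockdown libraries, against 386, 381 and 523 CPM in controls. It was lower in every knockdown library, at -1.22 ± 0.13 (adjusted p = 5.63e-09), the smallest adjusted p of all members. Cdc42 itself was at -0.16 ± 0.14 (adjusted p = 0.314). Cdc42bpab, a kinase bound by Cdc42, had 9.74, 29.3 and 21.2 CPM in knockdown libraries, against 3.74, 2.39 and 1.84 CPM in controls. It rose by 2.90 ± 0.41 (adjusted p = 5.53e-07) from a low level. Cdc37l1, related to an Hsp90 co-chaperone, had 29.1, 49.4 and 45.2 CPM in knockdown libraries, against 6.34, 7.61 and 14.5 CPM in controls. Its log2 fold change was 2.13 ± 0.28 (adjusted p = 1.46e-07), again without overlap. Cdc42ep5 and cdc42se1, a pair of Cdc42 effectors, rose by 1.53 ± 0.32 and 2.80 ± 0.67.

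**Figure D2:**
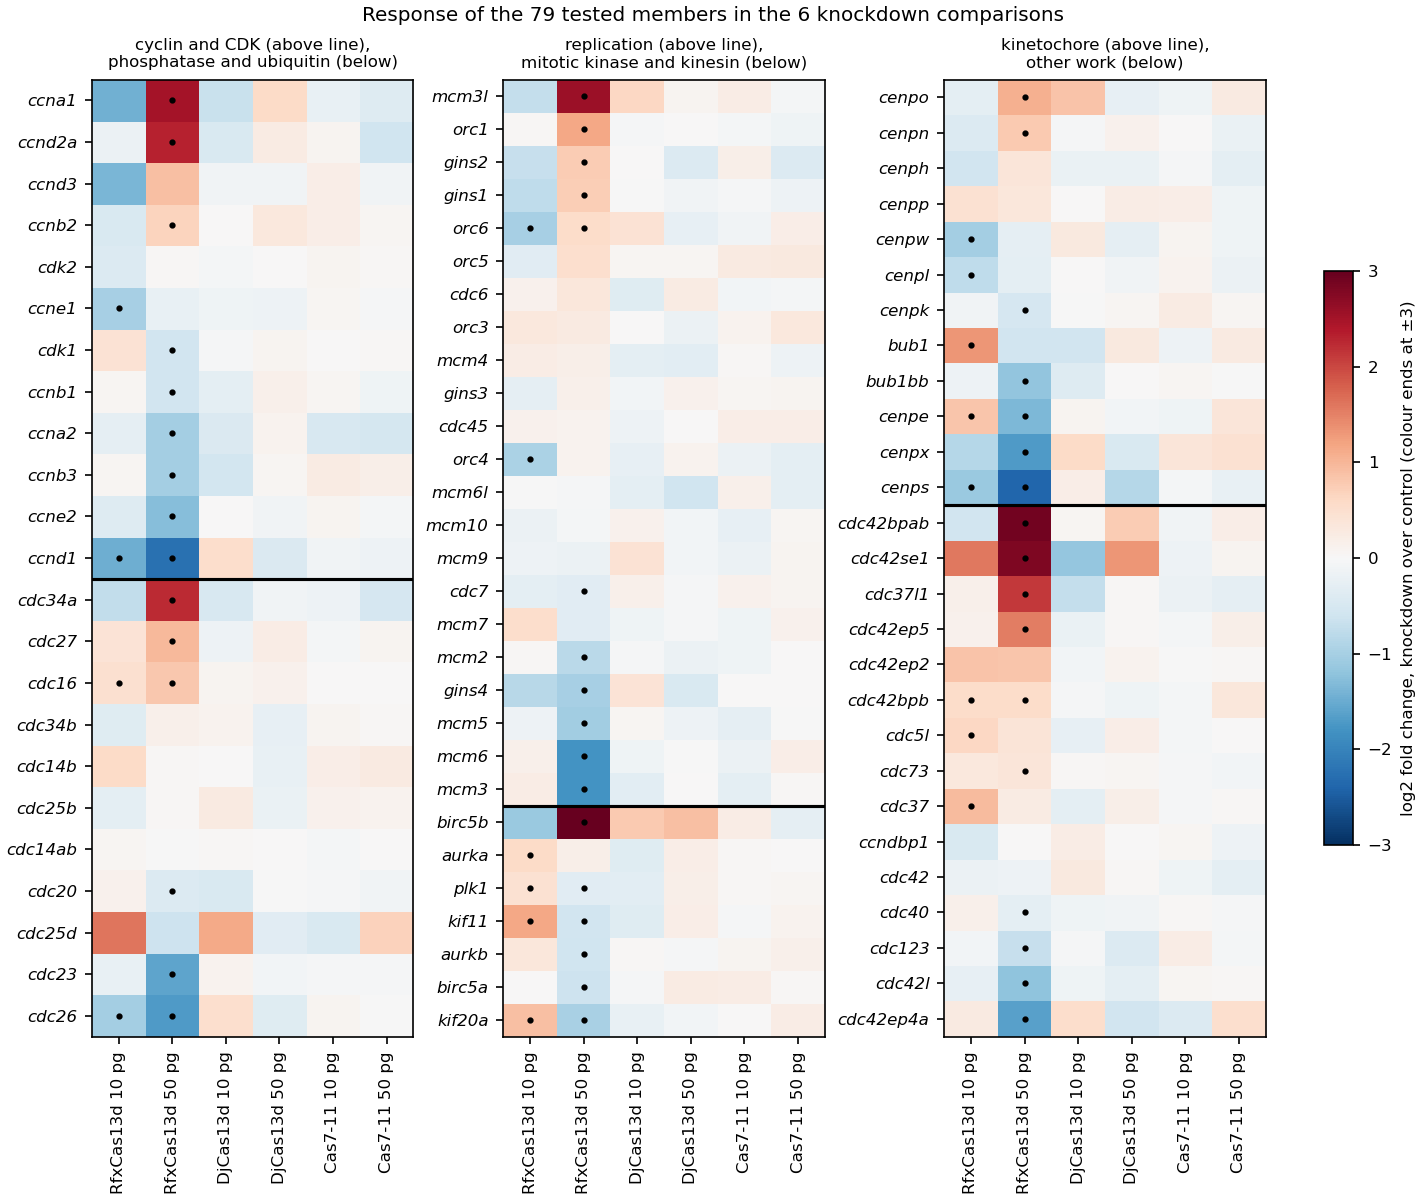
Log2 fold change of the 79 tested members, knockdown over control, in the 6 comparisons (columns, by effector and GFP dose); rows are genes by role, red is higher in knockdown and blue lower, and a dot marks an adjusted p under 0.05. Dots number 18 with RfxCas13d at 10 pg and 49 at 50 pg, and 0 in each DjCas13d and Cas7-11 column.

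Related genes could be compared within a library, where the ratio of their TPM does not depend on scaling. Of 13 pairs set side by side, 4 (mcm3 and mcm3l, mcm6 and mcm6l, cdc34a and cdc34b, cdc42 and cdc42l) were added after their values were seen. The share of mcm3l in the summed TPM of mcm3l and mcm3 was 22.4%, 48.5% and 65.8% in knockdown libraries, against 3.64%, 2.12% and 4.98% in controls. Birc5b made up 49.8%, 60.2% and 76.4% in knockdown libraries, against 14.0%, 10.2% and 7.50% in controls of both survivin genes. Ccna1 made up 74.3%, 84.4% and 87.1% in knockdown libraries, against 22.6%, 22.5% and 39.5% in controls of both A-type cyclins. In these 3 pairs the lowest knockdown share stood above the highest control share, and also above every share in the other 34 libraries, which reached at most 14.3% for mcm3l, 30.5% for birc5b and 49.1% for ccna1. The same held for ccnb2 beside ccnb1, with 27.6%, 44.6% and 31.9% in knockdown libraries, against 15.1%, 14.3% and 14.2% in controls, and for cdc34a beside cdc34b, with 47.3%, 57.8% and 51.5% in knockdown libraries, against 13.02%, 16.0% and 26.7% in controls. Mcm6l beside mcm6 gave 62.4%, 81.2% and 86.3% in knockdown libraries, against 44.4%, 45.4% and 54.5% in controls, and this shift came with a fall of mcm6 and no call for mcm6l. The other 34 libraries reached 74.1% for mcm6l, above the lowest of these knockdown shares. For ccne2 beside ccne1 the share was lower, 43.7%, 33.9% and 29.5% in knockdown libraries, against 53.8%, 49.6% and 60.6% in controls. Exact permutation tests of the log2 ratio, 2-sided, gave p = 0.1 for each of these pairs, the smallest p that 3 against 3 libraries allow, and the smallest adjusted p over the 78 tests of 13 pairs and 6 comparisons was 0.433. The remaining pairs were mixed in this comparison. Arms were apart for ccnd2a and ccnd3 beside ccnd1, and for cdc42l beside cdc42. They overlapped for ccnb3 beside ccnb1 and for cdc25d beside cdc25b (p = 0.8 and 0.4 in the same permutation test). Bub1 beside bub1bb had 53.9% to 60.1% in knockdown libraries, above its controls but within the 24.7% to 71.5% of the other 34 libraries. Multimapping reads were not assigned to any gene, which leaves the counts of near-identical copies uncertain.

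**Figure D3:**
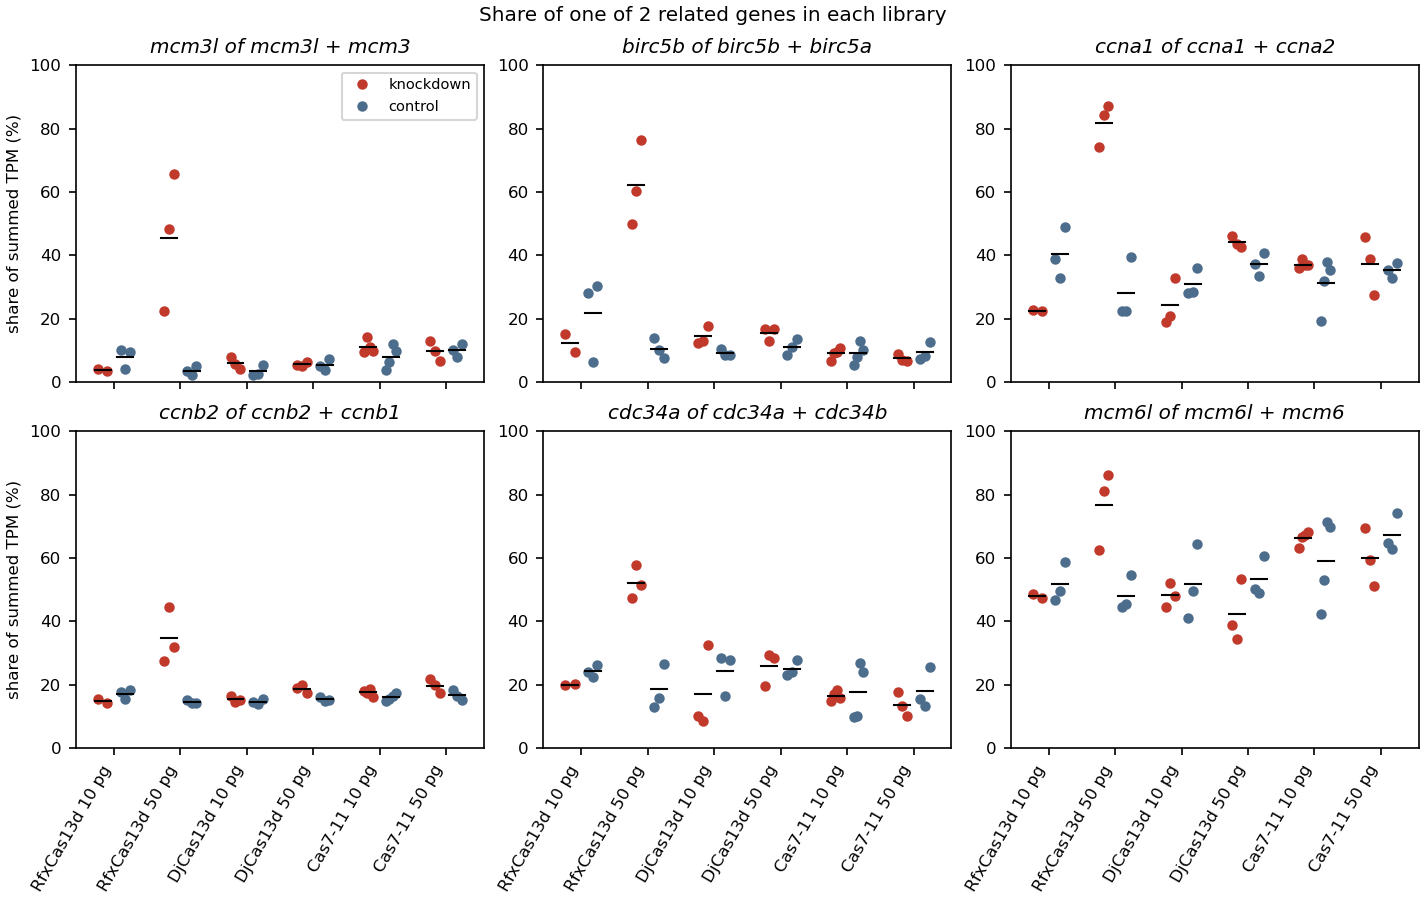
Share of the first-named gene in the summed TPM of 2 related genes, in percent, for each library (points) and group (bar at the mean), by effector and GFP dose, with knockdown left of control. The 3 RfxCas13d knockdown libraries at 50 pg stand apart in every panel but that of mcm6l, with shares of 22.4% to 65.8% for mcm3l, 49.8% to 76.4% for birc5b and 74.3% to 87.1% for ccna1. For mcm6l they held 62.4% to 86.3%, and the other 34 libraries reached 74.1%.

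Genes that rose and genes that fell differed in their level in control embryos. The 20 members that rose had a median of 56.5 TPM in knockdown libraries and 14.7 TPM in controls, and the 29 that fell had 67.6 TPM in knockdown libraries and 104 TPM in controls. The 30 members that were not called had 59.9 and 33.8 TPM. Over all genes tested the medians were 13.1 TPM in knockdown and 2.02 TPM in control libraries for the 4900 genes that rose, and 18.8 and 26.0 TPM for the 4694 that fell, so in both sets the genes that rose had the lower control median. The control level enters both axes of such a comparison, and no test was made of it.

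**Figure D4:**
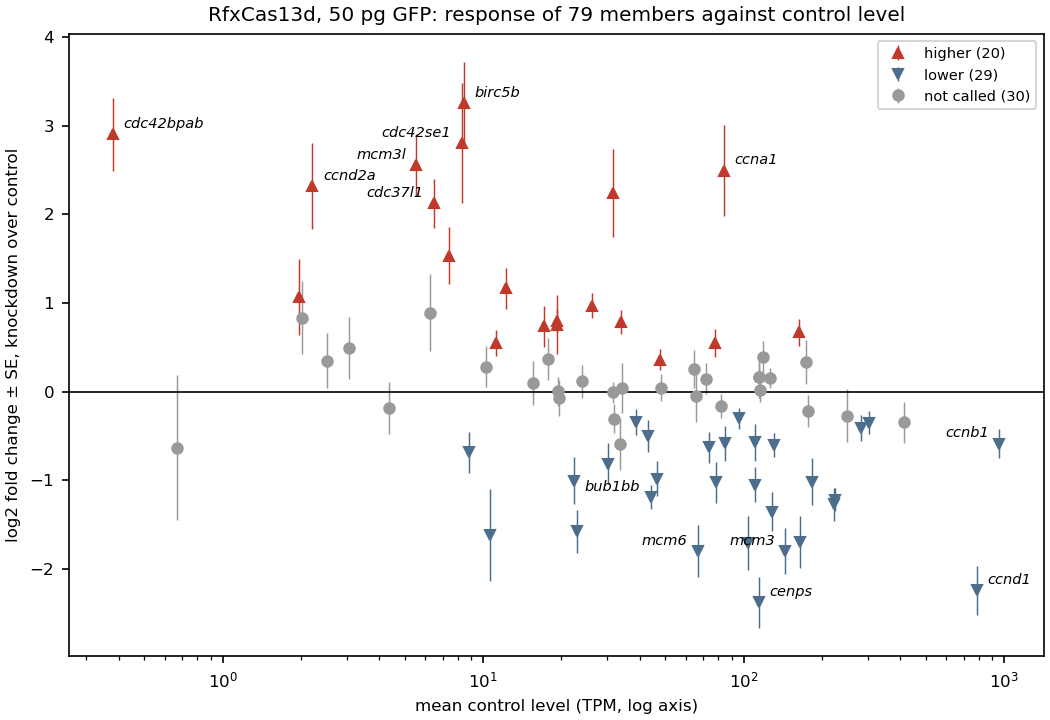
Log2 fold change ± SE (knockdown over control, RfxCas13d at 50 pg) of the 79 tested members against the mean TPM of the 3 control libraries (log axis), by call. The genes that rose most, such as birc5b and cdc42bpab, were at low control levels, at means of 8.48 and 0.38 TPM, whereas ccna1 was at 84.2 TPM. Ccnd1 combined a high control level with a strong fall, at a log2 fold change of -2.24.

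Other genes of the same pathways were compared through lists that do not share genes with the members. The counts are for RfxCas13d at 50 pg, where the background is 58.8% of all genes called, 30.0% higher and 28.8% lower. Of 20 tested genes of the spindle checkpoint and outer kinetochore, 5 rose and 6 fell, with ska2 (a microtubule-binding kinetochore protein) at 3.40 ± 0.26 and zw10 (a checkpoint protein) at 2.03 ± 0.27, and with bub3 (a checkpoint protein that binds Bub1 and BubR1) at -2.00 ± 0.26 and knl1 (a kinetochore scaffold) at -1.16 ± 0.17. Of 27 replication fork and licensing genes, 10 rose and 7 fell. The polymerase subunit pola2 (1.71 ± 0.20) and the licensing inhibitor gmnn (1.18 ± 0.18) were among those that rose, and the single-strand binding gene rpa1 (-0.85 ± 0.14) and the sliding clamp gene pcna (-0.73 ± 0.20) among those that fell. Of 18 cohesin and condensin genes, 3 rose and 8 fell, with nipblb, the cohesin loader, at -1.78 ± 0.20 and pttg1, securin, at 1.76 ± 0.42. Of 26 kinase, inhibitor and checkpoint genes, 10 rose and 5 fell, with the CDK inhibitor cdkn1a at 2.56 ± 0.54, the inhibitory kinase wee2 at 2.28 ± 0.42, the checkpoint kinase chek1 at 1.08 ± 0.23 and the centriole kinase plk4 at -0.90 ± 0.16. Of 20 genes of the E2F and DREAM regulators, 4 rose and 8 fell, among them mybl2b (-1.46 ± 0.14) and rbbp4 (-1.36 ± 0.16), and foxm1 was at 0.21 ± 0.16. Of 22 other mitotic kinesin and spindle genes, 7 rose and 9 fell, with kif18a at 0.90 ± 0.16 and top2b at -1.73 ± 0.30. In these 6 lists and the anaphase-promoting complex list together, every gene that rose passed in all 5 other scalings and tools. Of those that fell, few did so: 7 of 48 passed in all 5, and 14 turned sign in at least 1. Library size alone and TPM raise the median of all genes, which favours the genes that rose, so the contrast does not show that the rises are firmer.

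The RfxCas13d comparison at 10 pg held 18 calls, 10 higher and 8 lower, or 22.8% of the tested members against a background of 14.0% of all genes, with 6.98% of all genes called lower. The median log2 fold change of the members was -0.10, beside 0.01 over all genes. Arms did not overlap for 47 members, 19 higher and 28 lower, against a background of 46.3% of all genes, 24.4% higher and 21.9% lower. In log2(TPM + 1) the calls split 16 higher and 4 lower, and over all genes 2672 higher and 608 lower. Of the 10 genes called higher, 6 were mitotic or kinetochore genes, and of the 8 called lower, cenps, cenpl and cenpw were kinetochore genes. The kinetochore and mitotic roles hold 12 and 7 of the 79 tested members. Kif11 (the spindle motor Eg5) had 518 and 492 CPM in knockdown libraries, against 171, 339.5 and 172 CPM in controls, and bub1 had 209.8 and 223 CPM in knockdown libraries, against 50.1, 142 and 67.7 CPM in controls. The log2 fold changes were 1.15 ± 0.23 (adjusted p = 0.00301) and 1.32 ± 0.32 (adjusted p = 0.00893). In both genes control replicate 2 lay between the knockdown libraries and the other controls. Kif20a (0.91 ± 0.22), cenpe (0.83 ± 0.23), aurka (0.57 ± 0.18) and plk1 (0.47 ± 0.14) were also called higher, as were cdc16 and the other-work genes cdc37, cdc42bpb and cdc5l. Of those called lower, ccnd1 had 1078 and 1043 CPM in knockdown libraries, against 3771, 1534 and 3540.0 CPM in controls, and orc6 had 31.2 and 39.0 CPM in knockdown libraries, against 76.4, 53.8 and 80.8 CPM in controls. Their log2 fold changes were -1.48 ± 0.32 (adjusted p = 0.00443) and -1.003 ± 0.18 (adjusted p = 0.00176), again with control replicate 2 nearest the knockdown. Ccne1 (-0.998 ± 0.21), cenps (-1.12 ± 0.32), cenpl (-0.76 ± 0.19), cenpw (-1.02 ± 0.35), orc4 (-0.96 ± 0.30) and cdc26 (-1.02 ± 0.33) were the other genes called lower.

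Malat1 was at 754 and 876 CPM in the knockdown libraries of this dose, against 6162, 976 and 6356 CPM in control replicates 1, 2 and 3, so replicates 1 and 3 were malat1-rich. Mitochondrial mRNAs took 1.68% and 1.74% of the reads in the knockdown libraries, against 9.65%, 2.25% and 8.70% in control replicates 1, 2 and 3. In all 18 called members, control replicate 2 was nearer to the mean of the knockdown libraries than either malat1-rich control. These members were called on the same libraries, which favours genes where the malat1-rich controls lie far off. The pattern is thus in part set by the choice of genes, and it was not counted over genes that were not called. Without the malat1-rich libraries 0 members were called, with 1 control left and its spread taken from the other groups. Leaving out knockdown replicate 1 gave 0 calls and leaving out knockdown replicate 2 gave 3. Without control replicate 1 there were 4 calls, without control replicate 2 there were 32 and without control replicate 3 there were 5. Over all genes the same fits in turn called 163 higher and 338 lower, 2577 and 1942, and 234 and 328. In the fits that left 1 library in an arm, calls fell over all genes too. The loss of calls is thus not particular to the members. In the other pathway lists, 13 of 22 kinesin and spindle genes, 11 of 18 cohesin and condensin genes and 5 of 20 spindle checkpoint genes were higher and 0 lower. The other lists did not lie to one side: 2 of 27 replication fork genes were higher and 3 lower, 2 of 13 anaphase-promoting complex genes higher and 2 lower, 2 of 26 kinase, inhibitor and checkpoint genes higher and 1 lower, and 0 of 20 E2F and DREAM genes were called. Over all 16321 genes, 1142 were higher and 1139 lower. Of the genes called in these lists, 0 passed without the malat1-rich libraries.

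**Figure D5:**
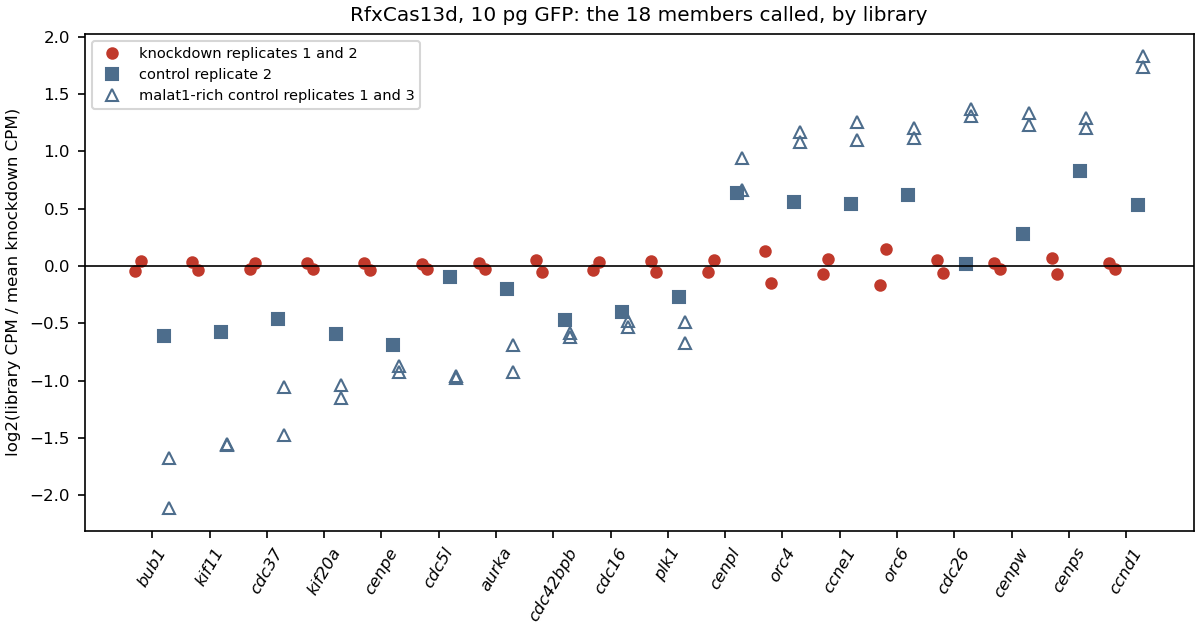
The 18 members called with RfxCas13d at 10 pg: log2 of each library's CPM over the mean CPM of the 2 knockdown libraries, with knockdown libraries as circles, control replicate 2 as squares and the malat1-rich control replicates 1 and 3 as open triangles. In each gene the square lies nearer to 0 than both triangles, and the genes were called on these same libraries, which favours this pattern.

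Of the 18 members called at 10 pg and the 49 called at 50 pg, 10 were shared, which is 55.6% of the 10 pg calls and 20.4% of the 50 pg calls. Since 49 of the 79 tested members were called at 50 pg, an overlap of this size is near what that share alone gives. The overlap was not counted over all genes. Of the 10 shared members, 5 went the same way: ccnd1, cenps and cdc26 lower, and cdc16 and cdc42bpb higher. The other 5 went opposite ways: orc6 was lower at 10 pg and higher at 50 pg, whereas kif11, kif20a, cenpe and plk1 were higher at 10 pg and lower at 50 pg, of which kif11 and plk1 turn sign at 50 pg in TPM and with library size alone. The difference between the RfxCas13d responses, 50 pg minus 10 pg, passed for 42 members, 20 higher and 22 lower, or 53.2% against a background of 40.7%, 19.8% higher and 20.9% lower. With library size alone the split was 30 higher and 9 lower, and over all genes 4701 higher and 2011 lower. Birc5b differed by 4.37 ± 0.71 (adjusted p = 1.98e-05) on the log2 scale, mcm3l by 3.27 ± 0.52 (adjusted p = 1.71e-05) and ccna1 by 3.93 ± 0.79 (adjusted p = 0.000294). In the other direction, cenpe differed by -2.18 ± 0.32 (adjusted p = 5.14e-06), kif20a by -1.89 ± 0.29 (adjusted p = 1.13e-05) and mcm3 by -2.02 ± 0.38 (adjusted p = 0.000117). Without the malat1-rich libraries 1 control was left at 10 pg, and fewer calls were made over all genes as well as over the members. Both doses of GFP came with their own controls, and dose cannot be told apart from the malat1-rich state of the 10 pg controls in these differences.

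With DjCas13d, 0 of 79 members were called at 10 pg (background 0% of all genes) and 0 at 50 pg (background 0.00613%). At an unadjusted p under 0.05 there were 8 members at 10 pg and 3 at 50 pg. The share of all genes at that threshold was not counted, so these numbers show nothing particular to the members. DESeq2 also called 0 members at both doses. At 50 pg the member with the smallest p was cenps, with 23.1, 18.9 and 20.2 CPM in knockdown libraries, against 37.1, 43.3 and 32.2 CPM in controls. The arms did not overlap, and the log2 fold change was -0.86 ± 0.27 (adjusted p = 0.39). Ccna1 had 191, 187 and 178 CPM in knockdown libraries, against 113, 104 and 158 CPM in controls, and cdc42se1 had 32.3, 42.0 and 29.5 CPM in knockdown libraries, against 15.00, 10.7 and 15.8 CPM in controls. Both arms were apart here too, yet neither gene passed, with log2 fold changes of 0.57 ± 0.49 (adjusted p = 0.735) and 1.32 ± 0.65 (adjusted p = 0.542). Arms did not overlap for 20 members at 50 pg, 12 higher and 8 lower, against a background of 24.8% of all genes, 12.6% higher and 12.2% lower. At 10 pg they did not for 8, 7 higher and 1 lower, against 11.2% of all genes, 5.67% higher and 5.53% lower. When only the 6 libraries of this comparison were fitted at 50 pg, 5 members passed: cdc42se1, ccnb2 and ccna1 higher and cenps and ccnd1 lower. In that fit 979 genes passed in all. At 10 pg, malat1 was at 5286, 5614 and 1105 CPM in knockdown libraries, against 787, 1013 and 1988 CPM in controls. Without knockdown replicate 3, which was not malat1-rich, 13 members passed, 12 lower and orc6 higher. That is 16.5% of the members, and 15.9% of all genes passed in the same fit.

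A direct test of the difference in response at 50 pg, RfxCas13d minus DjCas13d, passed for 35 members, 15 higher and 20 lower, or 44.3% against a background of 33.3%, 15.8% higher and 17.5% lower. With library size alone the split was 25 higher and 9 lower, and over all genes 4300 higher and 1551 lower. Bub1bb differed by -1.20 ± 0.19 (adjusted p = 2.17e-05), mcm3 by -1.80 ± 0.36 (adjusted p = 0.00033) and ccnd1 by -1.80 ± 0.38 (adjusted p = 0.000589) on the log2 scale. Mcm3l differed by 2.47 ± 0.48 (adjusted p = 0.000219) and cdc37l1 by 2.08 ± 0.38 (adjusted p = 0.000126) in the other direction.

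With Cas7-11, which was sequenced deepest, 0 members were called at 10 pg (background 0.0735%, 0.00613% higher and 0.0674% lower) and 0 at 50 pg (background 0.0613%). Unadjusted p-values under 0.05 were found for 1 member at 10 pg and 2 at 50 pg, again without a count over all genes. DESeq2 called 0 members at both doses. At 10 pg all 79 log2 fold changes lay within 0.5 of 0, between -0.47 ± 0.23 for ccna2 and 0.37 ± 0.25 for cenpx, with a median SE of 0.19. At 50 pg 76 of 79 did, and the range was -0.60 ± 0.44 for ccnd2a to 0.70 ± 0.59 for cdc25d. Arms did not overlap for 4 members at 10 pg, all higher, against a background of 4.60%, 1.97% higher and 2.63% lower. At 50 pg this held for 11, 3 higher and 8 lower, against 15.8%, 7.96% higher and 7.86% lower. A p that misses the threshold does not show that the arms were alike.

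The genes bub1bb, mcm3, ccne2 and birc5b, which mark this group, can be followed over all comparisons. With RfxCas13d at 10 pg, bub1bb had 194 and 171 CPM in knockdown libraries, against 204, 205 and 199 CPM in controls. It was at -0.15 ± 0.15 (adjusted p = 0.522), with knockdown values just under the controls in CPM, and it turned to 0.01 in TPM. With DjCas13d at 50 pg it had 184, 180.3 and 179 CPM in knockdown libraries, against 168, 192 and 179.8 CPM in controls, and with Cas7-11 at 50 pg 166, 159 and 176 CPM in knockdown libraries, against 168, 176 and 160.1 CPM in controls. These arms overlapped, with log2 fold changes of 0.01 ± 0.13 and -0.01 ± 0.13, whose signs turned in other fits. With DjCas13d at 10 pg the malat1-rich knockdown libraries were the lowest, since bub1bb had 138, 128 and 184 CPM in knockdown libraries, against 201, 182 and 202 CPM in controls. The log2 fold change was -0.38 ± 0.13 (adjusted p = 0.215). With Cas7-11 at 10 pg the other fits put bub1bb at 0.01 to 0.12, and it was not called.

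Mcm3 was at 0.22 ± 0.28 with RfxCas13d at 10 pg, -0.32 ± 0.25 and 0.00 ± 0.25 with DjCas13d at 10 and 50 pg, and -0.29 ± 0.22 and 0.03 ± 0.25 with Cas7-11, none of which passed and of which 4 turned sign in at least 1 other fit, all but the Cas7-11 value at 10 pg. Ccne2 was at -0.40 ± 0.21, 0.02 ± 0.18, -0.12 ± 0.18, 0.08 ± 0.16 and -0.05 ± 0.18 in the same order, and again none passed. The signs of both DjCas13d values turned in TPM and with library size alone. Birc5b with RfxCas13d at 10 pg had 3.73 and 2.54 CPM in knockdown libraries, against 8.44, 1.59 and 10.4 CPM in controls. The malat1-rich controls were the highest of these, and the log2 fold change was -1.11 ± 0.53 (adjusted p = 0.154). Its direction rests on those controls: without the malat1-rich libraries it was 0.97, and it did not pass in either fit. With DjCas13d at 10 pg the other fits put birc5b at 0.46 to 1.03, and with Cas7-11 at 10 pg at 0.03 to 0.41. With Cas7-11 at 50 pg it was at -0.28, and it was not called in these comparisons. With DjCas13d at 50 pg birc5b had 5.14, 4.83 and 5.96 CPM in knockdown libraries, against 2.47, 3.08 and 2.92 CPM in controls. All 3 knockdown libraries were above the controls, by 0.91 ± 0.47 (adjusted p = 0.56), which did not pass. The RfxCas13d response of birc5b at 50 pg exceeded that of DjCas13d by 2.35 ± 0.65 (adjusted p = 0.00595).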

How the data were processed

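Bulk RNA-seq was made from whole zebrafish embryos, with TRIzol extraction and a strand-marking library kit per the labels' protocols. The authors deposited raw read counts per gene for each library, and a TPM value per gene that they computed themselves. The build is danRer11 per the submitters' processing notes. Which aligner and counter were used, and whether counting was strand-specific, is not given in the sources used here, so overlapping antisense genes cannot be told apart. Summary entries, such as unmapped and multimapping reads, made up 17.3% to 26.4% of the count column totals and entered neither library sizes nor tests.

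The rule for the members goes by gene symbol, but these members and the gene lists were chosen with earlier results of these data known. The authors' TPM files gave symbols for 20859 genes, and a table of gene names gave 8382 more. Groups were taken from the sample titles. All 40 pairs of replicates within a group differed by more than sampling noise (chi-square per degree of freedom between 3.44 and 67.1), so each library counted once.

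Counts were analysed with edgeR 4.0.16 in R 4.3.3: a filter on low counts (filterByExpr), TMM scaling with factors of 0.82 to 1.42, and robust quasi-likelihood fits of 12 group means over all 37 libraries, with Benjamini-Hochberg adjustment over 16321 genes and a threshold of 0.05. The biological coefficient of variation was 0.253. Fold changes are knockdown over control. The 2 differences between responses were contrasts in the same fit. The edgeR fit was checked on simulated counts with 4-fold changes, in the 6 knockdown comparisons. Only a small part of the genes was changed, up or down at random, with the same dispersion for all genes. The check thus does not cover a comparison such as RfxCas13d at 50 pg, where 58.8% of all genes were called. The differences between responses, the other tools and the permutation tests were not checked in this way. The text names bub1bb, mcm3, ccne2 and birc5b in every comparison, up to 10 members called in each direction with the smallest adjusted p, up to 5 in each direction for differences between responses, abundant members of each role, and related gene pairs. Further members were named after their values were seen, to complete a role or complex. Alternatives were RLE size factors, library size alone, DESeq2 1.42.0, limma 3.58.1 on log2(TPM + 1) and log2(TPM + 0.1), no filter, only the libraries compared, no malat1-rich libraries, a replicate block, and each library left out in turn.

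With Cas7-11 at 10 pg, same-numbered knockdown and control libraries deviated together, with correlations of 0.28 to 0.51. Libraries of different number also did so within replicates 1 and 2 and within replicates 3 and 4, at 0.18 to 0.45. Between replicates 1 or 2 and replicates 3 or 4 the correlations were -0.47 to -0.25. The libraries thus grouped as replicates 1 and 2 apart from 3 and 4, and not in pairs by number. Replicate numbers did not pair libraries in the other 5 comparisons. Python 3.11.15 with scipy 1.17.1 was used for permutation tests of pair ratios, with 0.01 TPM added to each gene.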

Additional observations from a re-analysis of the deposited data

Results flagged for a closer look

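Within Cas7-11 at 10 pg, the only groups of 4 libraries, a library stood far from the others in 4 of 76 tests of named members, and chance gives about 1 in 20. Cdc42ep5 was at 13.1 TPM in knockdown replicate 4, with the next library at 19.6 TPM. Cenpl was at 49.6 TPM in knockdown replicate 2, above the next at 44.7 TPM. Mcm3l was at 9.18 TPM in knockdown replicate 1, below the next at 10.8 TPM. Cdc42l was at 202 TPM in control replicate 3, below the next at 221 TPM.

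Differences between responses were singled out where the contrast of 2 responses passed in edgeR (adjusted p under 0.05). Between RfxCas13d at 50 pg and at 10 pg, the log2 response was higher at 50 pg for birc5b by 4.37, cdc42bpab by 3.49, mcm3l by 3.27, orc6 by 1.55 and cenpn by 1.21. The same difference was -2.18 for cenpe, -2.02 for mcm3, -1.89 for kif20a, -1.72 for kif11, -1.04 for bub1bb and -0.87 for ccne2. The controls at 10 pg include 2 malat1-rich libraries of 3.

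Between RfxCas13d and DjCas13d at 50 pg, the log2 response was higher with RfxCas13d for mcm3l by 2.47, birc5b by 2.35, cdc42bpab by 2.15, cdc37l1 by 2.08, cdc27 by 0.76 and cdc16 by 0.67. It was lower for ccnd1 (-1.80), mcm3 (-1.80), cdc23 (-1.49), bub1bb (-1.20), ccne2 (-1.15) and cdc42l (-0.93).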

How the results depend on the processing

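The RfxCas13d count at 50 pg was 31 members instead of 49 when only the libraries compared were fitted, 40 to 47 with a library left out, and 46 to 57 under every other fit tried on the same members. At 10 pg the 18 calls became 10 with no filter on low counts, 0 with only the libraries compared and 0 without the malat1-rich libraries, and 0 to 32 with a library left out. For RfxCas13d at 50 pg minus 10 pg, the 42 calls became 24 with only the libraries compared, 27 without the malat1-rich libraries and 29 to 46 with a library left out. For RfxCas13d minus DjCas13d at 50 pg, leaving out a library gave 28 to 39 calls beside 35. DjCas13d had 0 to 13 calls at 10 pg with a library left out, and 5 at 50 pg with only the libraries compared. Cas7-11 kept 0 calls in every alternative run. Counts over all genes moved as well. With only the libraries compared, RfxCas13d at 50 pg had 3167 genes higher and 2845 lower of 13438, beside 4900 and 4694 of 16321. At 10 pg that setting called 0 of 13403 genes, and no filter called 722 higher and 753 lower of 28231, beside 1142 and 1139 of 16321. For 50 pg minus 10 pg it called 2007 higher and 1702 lower of 15180 with only the libraries compared, beside 3230 and 3415 of 16321. The causes of these changes were not tested.

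With a replicate block, the RfxCas13d calls numbered 4 at 10 pg and 49 at 50 pg, and 32 for the difference between doses. Over all genes these were 163 higher and 185 lower, 4784 and 4603, and 2627 and 3036. The block gave 0 calls in the DjCas13d and Cas7-11 comparisons, Cas7-11 at 10 pg included, and 35 for RfxCas13d minus DjCas13d. Of 81 values of genes named by the rule for the text, 61 passed, and 0 of those turned sign under an alternative. That rule favours the smallest adjusted p. Outside it, 9 members called lower with RfxCas13d at 50 pg did turn sign. Of these 61, 20 lost their call with only the libraries compared, 19 without the malat1-rich libraries, 14 with the block, 11 in log2(TPM + 1), 8 with no filter and 4 with library size alone. After the data were seen, 13 genes with capital-letter or table-only symbols were added, which gave 54 calls with RfxCas13d at 50 pg and 19 at 10 pg, and members known for other work were left out, which gave 39 and 15. At 10 pg the RfxCas13d arms have the fewest libraries, and lowly counted members such as cdc25d are the least precise.

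Of the 20 named values that did not pass, 12 turned sign, and 0 passed where they did. Without the malat1-rich libraries the log2 fold change with RfxCas13d at 10 pg was 0.97 for birc5b and -0.22 for mcm3. In the same fit mcm3 was at 0.0063 with DjCas13d at 10 pg and -0.014 at 50 pg, and bub1bb at -0.0069 at 50 pg. With library size alone, log2(TPM + 0.1) and log2(TPM + 1) in turn, bub1bb was at 0.017, 0.036 and 0.035 with Cas7-11 at 50 pg, and ccne2 at -0.083, -0.190 and -0.189 with DjCas13d at 10 pg and 0.010, 0.056 and 0.056 at 50 pg. Bub1bb with RfxCas13d at 10 pg was at 0.0084 and 0.0082 in the TPM fits. Mcm3 with DjCas13d at 50 pg was at -0.00097 with DESeq2 and -0.00095 with RLE size factors. With a library left out, the ranges that crossed 0 were -0.49 to 0.051 for birc5b, -0.047 to 0.037 for bub1bb and -0.12 to 0.13 for mcm3 with Cas7-11 at 50 pg, and -0.012 to 0.22 for ccne2 at 10 pg. With DjCas13d they were -0.065 to 0.064 for ccne2 at 10 pg, and -0.039 to 0.060 for bub1bb and -0.099 to 0.12 for mcm3 at 50 pg.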
